A study of Mus musculus with 8 samples.

Results

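The 10 myeloid C-type lectin receptor genes described here are *Clec4a1*, *Clec4a2*, *Clec4a3*, *Clec4n*, *Clec4d*, *Clec4e*, *Clec7a*, *Clec5a*, *Clec10a*, and *Mgl2*. They were chosen by name as members of the receptor family, with earlier results of these data known. Each matched 1 of the 54146 genes in the count table by its Ensembl ID. The libraries came from macrophages of epididymal white adipose tissue (eWAT), sorted with an antibody against FCGR4, an Fc receptor for IgG, into FCGR4+ and FCGR4- populations, so that each of 4 mice gave 1 library of each population and the comparison is within a mouse. All 4 were C57Bl6 mice that had eaten a high-fat diet freely for 24 weeks and then received 30% less food for 2 weeks, so no library comes from a mouse that was not calorie restricted. Before the FCGR4 gate, the cells had been gated as CD45+, CD11b+ and negative for CD3, B220, Ly6G, and SiglecF, and the labels name no further macrophage marker in the gate.

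C-type lectin receptors are surface proteins of macrophages, monocytes, neutrophils, and dendritic cells that bind carbohydrates and glycolipids of microbes and of damaged tissue. Dectin-1 (*Clec7a*) signals through its own tail and the kinase SYK, while Dectin-2 (*Clec4n*), MCL (*Clec4d*), and Mincle (*Clec4e*) signal through the Fc receptor γ chain (*Fcer1g*) and MDL-1 (*Clec5a*) through the adaptor DAP12 (*Tyrobp*). The DCIR group (*Clec4a1*, *Clec4a2*, *Clec4a3*) includes a receptor with an inhibitory tail, and the galactose-type lectins MGL1 (*Clec10a*) and MGL2 (*Mgl2*) are endocytic receptors used as markers of alternatively activated macrophages. In adipose tissue, Mincle and the galactose-type lectins are known from macrophages of obese mice.

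Total counts lay between 35992794 and 66856746 per library. *Fcgr4*, the sorted marker, was higher in FCGR4+ libraries, at 199.6 ± 42.4 against 66.2 ± 18.3 CPM (counts relative to the library total, scaled by edgeR's TMM factors, mean ± SD, n = 4), with a log2 fold change of 1.61 (SE 0.17) and an edgeR adjusted p of 0.0162. *Adgre1*, which encodes the macrophage marker F4/80, lay between 684 and 2386 CPM in the 8 libraries. Of the macrophage markers, 0 of 10 passed the edgeR threshold, 6 had an unadjusted p under 0.05, and DESeq2 called 6, all higher in FCGR4+ cells. Among markers of other cells, edgeR called lower in FCGR4+ libraries 9 of 9 tested mast cell and basophil genes (DESeq2 9), 6 of 8 neutrophil genes (6), 5 of 10 dendritic cell genes (8), 5 of 7 T and NK cell genes (7), 4 of 7 fibroblast genes (7), and 1 of 4 B cell genes (3). It also called lower 2 of 7 classical monocyte genes (DESeq2 4) and 1 of 6 genes of the resident adipose macrophage subset (2), with *F13a1* in both of these lists. Neither tool called any of these genes higher. By edgeR, 0 of 4 endothelial genes (2 at an unadjusted p under 0.05, 1 lower by DESeq2) and 0 of 5 adipocyte genes (0 by either measure) passed. In bulk RNA, fewer cells of a type and less RNA per cell cannot be told apart.

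None of the 10 receptor genes differed between FCGR4+ and FCGR4- cells at the threshold (adjusted p under 0.1, edgeR's quasi-likelihood test paired by mouse, adjusted over 17095 genes). All 10 passed the filter on low counts, and 0 were called, beside 1.27% of all tested genes, of which 0.0819% were called higher and 1.19% lower. At an unadjusted p under 0.05 there were 3, *Clec4a1*, *Clec4d*, and *Clec4n*, beside 9.77% of tested genes. DESeq2 with the same paired model called these 3, *Clec4a1* higher (1.12% of genes were called higher by it) and *Clec4d* and *Clec4n* lower (4.87% were called lower). The log2 fold change of FCGR4+ over FCGR4- was above 0 for 4 members and below 0 for 6, with a median of -0.17 against -0.00254 over all tested genes. Without mouse 2 the members' median was 0.00846, on the other side of 0. FCGR4+ levels were above the FCGR4- level of the same mouse in 4 of 4 mice for *Clec4a1* and *Clec4a2* (8.38% of tested genes), and below it in all 4 for *Clec4d* (10.5% of tested genes). In none of the 10 did the 4 FCGR4+ values lie wholly apart from the 4 FCGR4- values, which was so in 0.883% of tested genes with FCGR4+ cells higher and in 3.02% with FCGR4+ cells lower.

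**Figure D1:**
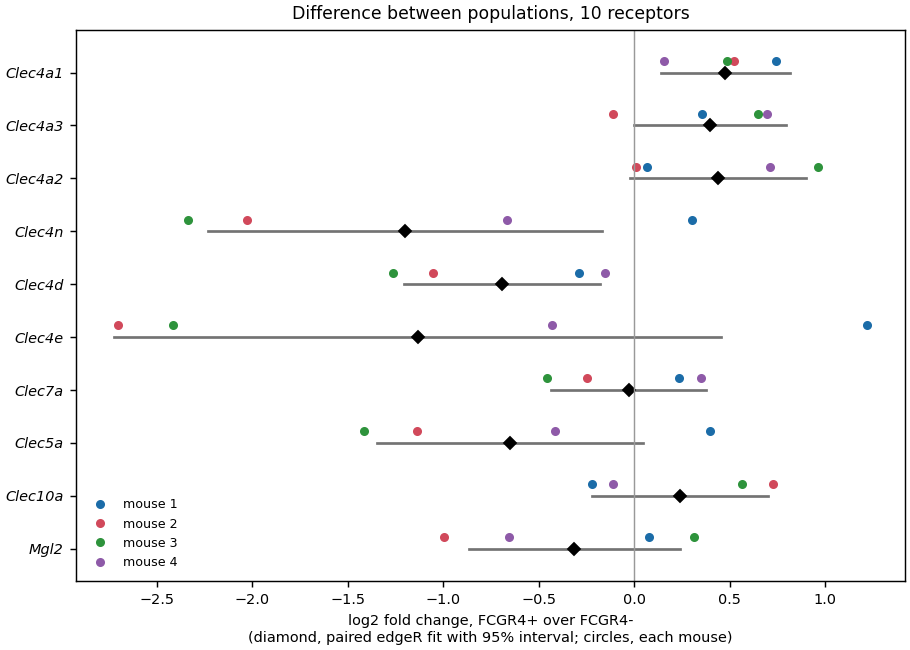
Log2 fold change of FCGR4+ over FCGR4- (horizontal axis) of the 10 receptor genes, with a diamond and line for the paired edgeR estimate and its 95% interval and circles for the 4 mice. The DCIR group lies right of 0, up to 0.48 for *Clec4a1*, while *Clec4n*, *Clec4d*, *Clec4e*, and *Clec5a* lie left of it with mice spread widely.

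The DCIR group lies in a run on chromosome 6, with *Clec4a1* at chr6:122921848-122934619, *Clec4a3* at chr6:122952515-122969875, and *Clec4a2* at chr6:123106428-123143999, all on the plus strand (mm10, as in the deposited annotation). *Clec4a1*, which encodes DCIR4, was at 160.2, 109, 145, and 147 CPM in FCGR4+ cells of mice 1 to 4 and at 95.8, 76.1, 103.5, and 132 CPM in the FCGR4- cells of the same mice. Each mouse had more in its FCGR4+ cells, and the groups overlapped only because mouse 2 was low in both populations and mouse 4 high in its FCGR4- cells. edgeR's estimate was a log2 fold change of 0.48 (SE 0.14, 95% interval 0.14 to 0.81), with an adjusted p of 0.303 by edgeR and 0.0458 by DESeq2, so the call rests on the tool. This is the only member with an interval wholly above 0.

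*Clec4a2* encodes DCIR1, whose tail carries an inhibitory motif that recruits the phosphatases SHP-1 and SHP-2. It measured 297, 174.5, 399, and 370.0 CPM in FCGR4+ cells of mice 1 to 4, and 283, 174, 205, and 226 CPM in FCGR4- cells. Mice 1 and 2 had nearly equal levels in both populations (log2 ratios of 0.07 and 0.01), whereas mice 3 and 4 were higher in FCGR4+ cells (0.96 and 0.71), and the groups overlapped. The fitted log2 fold change was 0.44 (SE 0.20, 95% interval -0.02 to 0.90, edgeR adjusted p = 0.526). It was 0.04 with mice 1 and 2 alone and 0.82 with mice 3 and 4 alone. Mice 1 and 2 carry a different animal ID prefix from mice 3 and 4 in the labels.

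*Clec4a3*, which encodes DCIR3, had the highest mean level of the 10 genes in FCGR4+ cells, in CPM (though below *Clec7a*, at 686 CPM, in mouse 2) and per kb of exon. Its values were 814, 568, 673, and 670.5 CPM in FCGR4+ cells and 636, 614, 429, and 414 CPM in FCGR4- cells. It was higher in FCGR4+ cells of 3 mice and lower in mouse 2, and the groups overlapped. For *Clec4a3* the log2 fold change was 0.40 (SE 0.17, 95% interval -0.00 to 0.80, edgeR adjusted p = 0.511). *C1qa*, *C1qb*, *C1qc*, *Fcgr1*, *Adgre1*, and *Mertk* were the 6 macrophage markers that DESeq2 called higher in FCGR4+ cells, and their part in the DCIR values was not tested.

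**Figure D2:**
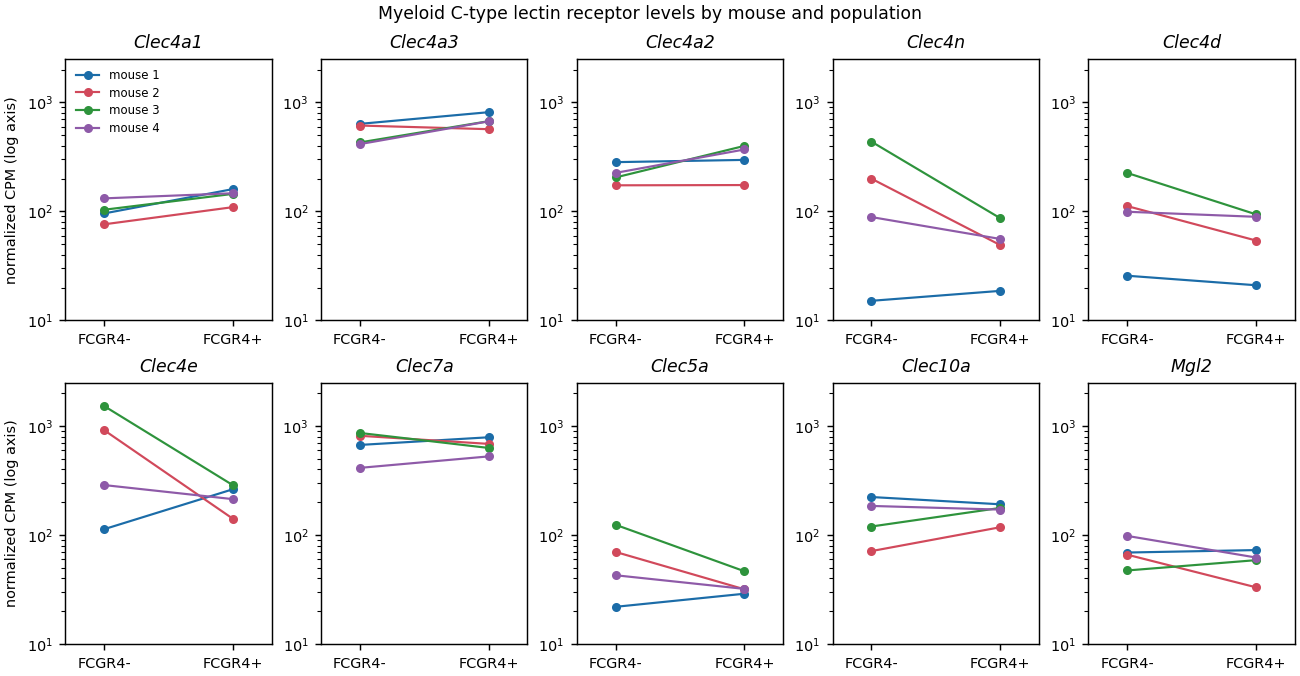
Normalized CPM (log axis) of each receptor gene in FCGR4- and FCGR4+ cells, with 1 line for each of the 4 mice. From FCGR4- to FCGR4+, lines slope up in all 4 mice for *Clec4a1*, slope down steeply in mice 2 and 3 for *Clec4n* and *Clec4e*, and cross for *Clec7a*, *Clec10a*, and *Mgl2*.

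The Dectin-2 cluster follows on the same chromosome, with *Clec4n* at chr6:123229843-123247021 and *Clec4d* at chr6:123262111-123275265 on the plus strand and *Clec4e* at chr6:123281789-123289870 on the minus strand. RefSeq promoter sequences (GRCm38.p6) were found for 8 of the 10 members, and *Clec4n* and *Clec10a* were not among them. The 250 bases before the start site are shown for *Clec4d* and *Clec4e* (this cluster), for *Clec5a*, whose levels followed theirs, and for *Clec4a1*, whose levels did not, each 5′ to 3′ on the gene's strand. They are chr6:123261857-123262106 (plus) for *Clec4d*, chr6:123289872-123290121 (minus) for *Clec4e*, chr6:40585806-40586055 (minus) for *Clec5a*, and chr6:122921598-122921847 (plus) for *Clec4a1*. Capitals mark matches on either strand to short motifs of 5 factors of myeloid gene regulation, PU.1 (GAGGAAG), C/EBP (TTGCNNAA), NF-kB (GGGA and TCC with any 3 bases between), AP-1 (TGANTCA), and STAT (TTC and GAA with any 4 bases between).
Clec4d: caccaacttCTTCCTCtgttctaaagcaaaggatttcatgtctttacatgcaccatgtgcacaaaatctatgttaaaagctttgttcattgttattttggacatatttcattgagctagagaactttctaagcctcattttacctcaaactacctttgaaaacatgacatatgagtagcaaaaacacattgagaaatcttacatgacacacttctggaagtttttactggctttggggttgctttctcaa
Clec4e: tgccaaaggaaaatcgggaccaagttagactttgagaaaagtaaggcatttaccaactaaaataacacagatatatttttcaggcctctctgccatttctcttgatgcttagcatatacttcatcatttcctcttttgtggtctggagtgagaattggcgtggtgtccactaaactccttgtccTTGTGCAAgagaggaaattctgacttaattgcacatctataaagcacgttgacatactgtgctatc
Clec5a: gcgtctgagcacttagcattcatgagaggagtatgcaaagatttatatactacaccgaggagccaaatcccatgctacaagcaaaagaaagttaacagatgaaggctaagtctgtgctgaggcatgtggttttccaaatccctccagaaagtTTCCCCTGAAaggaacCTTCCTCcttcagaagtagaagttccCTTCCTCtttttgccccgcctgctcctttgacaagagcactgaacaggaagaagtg
Clec4a1: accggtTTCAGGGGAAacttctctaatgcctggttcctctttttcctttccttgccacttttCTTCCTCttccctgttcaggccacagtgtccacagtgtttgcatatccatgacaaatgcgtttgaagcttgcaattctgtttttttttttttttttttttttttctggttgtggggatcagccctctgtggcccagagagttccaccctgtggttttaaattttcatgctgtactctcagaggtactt

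The *Clec4e* window held 1 match to the C/EBP letters, starting 66 bases before the start site (position -66), and the *Clec4d* window held 1 PU.1 match at -241. The *Clec5a* window held PU.1 matches at -82 and -56 and a STAT match at -98, and that of *Clec4a1* held a PU.1 match at -188 and a STAT match at -244. No 2 matches overlapped. Among 32851 RefSeq promoter windows of the same length, 10.6% held the PU.1 letters, 9.56% C/EBP, 3.86% NF-kB, 6.75% AP-1, and 5.85% STAT. Of the 8 members with a window, 3 held PU.1, 3 STAT, 1 C/EBP, 1 NF-kB (*Mgl2*), and 0 AP-1. The *Clec4a2* window, which held none, belongs to a RefSeq start 16262 bases downstream of the annotated gene start. No motif was in all 3 windows of *Clec4d*, *Clec4e*, and *Clec5a*, while PU.1 was in those of *Clec4d* and *Clec5a* and also in that of *Clec4a1*.

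*Clec4n* encodes Dectin-2, a receptor for fungal mannans. Its levels were 18.6, 49.1, 86.7, and 55.9 CPM in FCGR4+ cells of mice 1 to 4, and 15.1, 199.95, 437, and 88.8 CPM in FCGR4- cells. Mouse 1 was lowest in both populations, mice 2 and 3 were far higher in FCGR4- cells, and the groups overlapped. Within FCGR4- cells the highest value was 28.9 times the lowest, against 4.65 times within FCGR4+ cells. The log2 fold change was -1.20 (SE 0.44, 95% interval -2.23 to -0.17), with an adjusted p of 0.432 by edgeR and 0.0253 by DESeq2. Without mouse 1 it was -1.69, and without mouse 3 it was -0.81, and edgeR called neither (adjusted p = 0.188 and 0.844).

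*Clec4d* encodes MCL, which pairs with Mincle and the Fc receptor γ chain. It was at 21.0, 54.1, 94.0, and 89.2 CPM in FCGR4+ cells and at 25.7, 112, 226, and 99.3 CPM in FCGR4- cells. All 4 mice had less in FCGR4+ cells, with log2 ratios of -1.05 and -1.26 in mice 2 and 3 and of -0.29 and -0.15 in mice 1 and 4. The groups overlapped because mouse 1 was low in both. Its log2 fold change was -0.69 (SE 0.22, 95% interval -1.20 to -0.18), with an adjusted p of 0.330 by edgeR and 0.0466 by DESeq2.

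*Clec4e* encodes Mincle, a receptor for mycobacterial glycolipids and for products of dying cells. It measured 263, 141, 286, and 213 CPM in FCGR4+ cells of mice 1 to 4, but 113, 917, 1527, and 287 CPM in FCGR4- cells. The FCGR4+ values stayed within a 2.03-fold range, whereas the FCGR4- values spanned 13.5-fold, and the direction differed between mice, with mouse 1 higher in FCGR4+ cells (log2 ratio 1.22) and mice 2, 3, and 4 lower (-2.70, -2.41, and -0.43). The fitted log2 fold change of -1.13 therefore had an SE of 0.68 and a 95% interval of -2.72 to 0.45 (adjusted p = 0.605 by edgeR and 0.591 by DESeq2). It was -1.88 without mouse 1 and -0.49 without mouse 2, and edgeR called neither (adjusted p = 0.265 and 0.791). With mice 1 and 2 alone it was -0.74 and with mice 3 and 4 alone, the other animal ID prefix, -1.44.

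Markers of other cells followed these 3 genes in some libraries and not in others. Of 9 neutrophil markers 8 were tested and 6 were called lower in FCGR4+ cells. Their summed level was 124, 198, 553, and 169 CPM in FCGR4+ cells of mice 1 to 4 and 398, 603, 2465, and 702 CPM in FCGR4- cells, highest in the FCGR4- library of mouse 3, where *Clec4n*, *Clec4d*, and *Clec4e* were also highest. In mouse 1, however, the neutrophil sum was lower in FCGR4+ cells while *Clec4e* and *Clec4n* had positive log2 ratios (1.22 and 0.30), and among FCGR4- libraries the neutrophil sum was higher in mouse 4 than in mouse 2 while *Clec4e* and *Clec4n* were lower. Within the list the levels differed widely, since *S100a8* reached 1211 CPM in the FCGR4- library of mouse 3, whereas the granule genes *Camp*, which was not tested, and *Ngp*, which was not called, were at most 0.559 and 5.12 CPM in any library. The summed classical monocyte markers, of which 2 of 7 were called lower, ranged from 639 to 2322 CPM in FCGR4+ and from 554 to 3269 CPM in FCGR4- cells, and the lowest of these sums in FCGR4- cells was again mouse 1. The summed dendritic cell markers ranged from 29.5 to 75.7 CPM and from 108 to 283 CPM. The monocyte and dendritic cell sums, like that of neutrophils, were highest in the FCGR4- library of mouse 3. Mast cell and basophil markers were highest in the FCGR4- library of mouse 1 (2147 CPM), where *Clec4n* was lowest, and lowest in that of mouse 3 (391.5 CPM), where it was highest, and were at most 30.5 CPM in FCGR4+ cells, with the basophil protease gene *Mcpt8* at 0 in all 4. The part of these cells in the *Clec4n*, *Clec4d*, and *Clec4e* values was not tested.

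**Figure D3:**
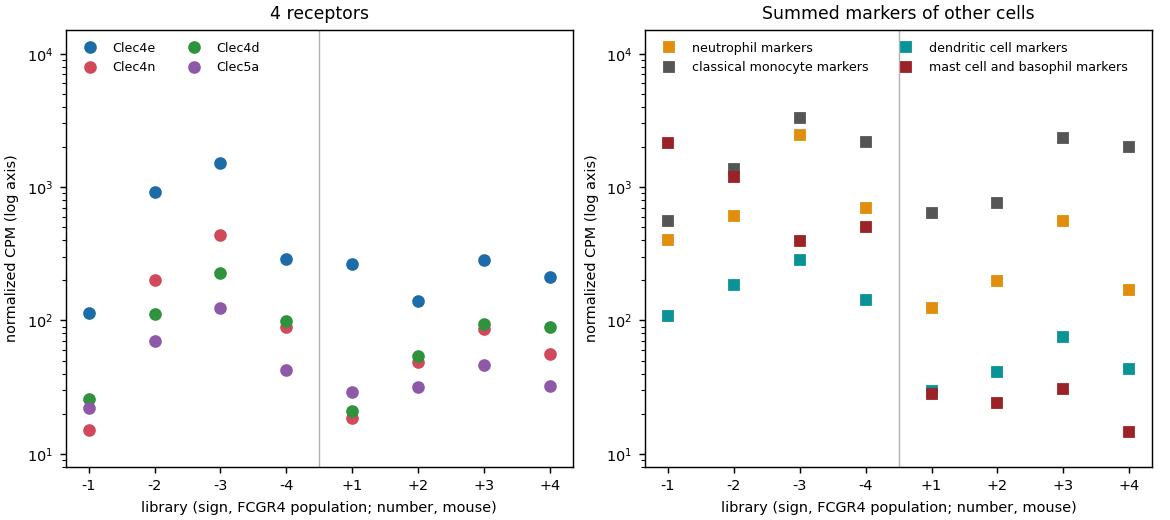
Normalized CPM (log axis) in each of the 8 libraries, for *Clec4e*, *Clec4n*, *Clec4d*, and *Clec5a* on the left and for the summed markers of neutrophils, classical monocytes, dendritic cells, and mast cells with basophils on the right. The 4 receptor genes and the neutrophil, monocyte, and dendritic cell markers peak together in the FCGR4- library of mouse 3, and mast cell and basophil markers peak at 2147 CPM in that of mouse 1.

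*Clec7a* (chr6:129461591-129472779, minus strand) encodes Dectin-1, the receptor for fungal β-glucan. It was at 788, 686, 629, and 526 CPM in FCGR4+ cells and 671, 814, 864, and 413 CPM in FCGR4- cells. Mice 1 and 4 had more in FCGR4+ cells and mice 2 and 3 less, and all 4 FCGR4+ values lay within the range of the FCGR4- values. The log2 fold change was -0.03 (SE 0.17, edgeR adjusted p = 0.959), and its 95% interval of -0.44 to 0.38 leaves room for differences of either sign inside those limits. Its sign turned when mouse 2 or mouse 3 was left out (0.07 and 0.10). Unlike the Dectin-2 cluster, *Clec7a* spanned only 2.09-fold across FCGR4- libraries.

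*Clec5a* (chr6:40574894-40585821, minus strand) encodes MDL-1, which associates with DAP12 and DAP10. Its levels were 28.9, 31.7, 46.5, and 32.0 CPM in FCGR4+ cells and 21.9, 69.9, 124, and 42.7 CPM in FCGR4- cells. As with *Clec4e*, mouse 1 was higher in FCGR4+ cells and the other mice lower, most in mice 2 and 3 (log2 ratios of -1.14 and -1.42), and the groups overlapped. The fit gave -0.65 on the log2 scale (SE 0.30, 95% interval -1.35 to 0.05, edgeR adjusted p = 0.531), and leaving out 1 mouse moved it between -0.99 and -0.40.

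*Mgl2* (chr11:70130329-70137550) and *Clec10a* (chr11:70156197-70170834) are neighbors on the plus strand of chromosome 11. *Clec10a* encodes MGL1, which binds Lewis X glycans. It was at 191, 118, 177, and 171 CPM in FCGR4+ cells and at 223, 71.1, 119.6, and 185 CPM in FCGR4- cells, with mice 2 and 3 higher in FCGR4+ cells and mice 1 and 4 slightly lower. Its log2 fold change was 0.24 (SE 0.20, 95% interval -0.22 to 0.70, edgeR adjusted p = 0.688), and between 0.11 and 0.39 when 1 mouse was left out. *Mgl2* encodes MGL2, which binds terminal N-acetylgalactosamine. It was at 72.7, 33.1, 58.7, and 62.1 CPM in FCGR4+ cells and at 69.0, 66.0, 47.2, and 98.1 CPM in FCGR4- cells. Mice 2 and 4 were lower in FCGR4+ cells, mouse 3 was higher, and mouse 1 was near equal, for a log2 fold change of -0.31 (SE 0.23, 95% interval -0.87 to 0.24, edgeR adjusted p = 0.663). Leaving out 1 mouse moved it between -0.54 and -0.06. A read pair with several mapping places added to the count of each, and 12.2% of the 50-base words of *Mgl2* transcripts occur in *Clec10a* and 8.49% of those of *Clec10a* in *Mgl2*, so part of each count may belong to the other gene. *Clec4a2* shared 6.83% of its words with other genes, most with *Clec4a4*, *Clec4n* shared 0.686%, and the other 6 members shared none. No exon base of the 10 genes overlapped another gene in the deposited annotation.

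Divided by the deposited exon length, the levels fell into a wide order. In FCGR4+ cells *Clec4a3* was highest at 513.5 ± 76.0 CPM per kb, followed by *Clec7a* at 249 ± 41.5, *Clec4a2* at 106.0 ± 34.2, *Clec4a1* at 90.1 ± 13.9, *Clec10a* at 56.7 ± 11.1, *Clec4e* at 45.5 ± 12.96, *Clec4d* at 40.4 ± 21.3, *Clec4n* at 37.0 ± 19.7, *Mgl2* at 27.1 ± 8.02, and *Clec5a* at 9.06 ± 2.06 (SD, n = 4). *Clec4a3*, *Clec7a*, and *Clec5a* stood apart from their neighbors in this order, as did *Clec4a1* from *Clec10a*, while the ranges of the other neighbors overlapped. In FCGR4- cells every neighbor in the order overlapped the next. There *Clec4a3* was at 394 ± 88.7 and *Clec7a* at 262 ± 76.6 CPM per kb, and *Clec4e* (143 ± 129.8) and *Clec4n* (130.5 ± 129.8) came next by mean, with SDs nearly as large as the means. In the FCGR4- cells of mouse 1 these 2 genes were at 22.8 and 10.6 CPM per kb.

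**Figure D4:**
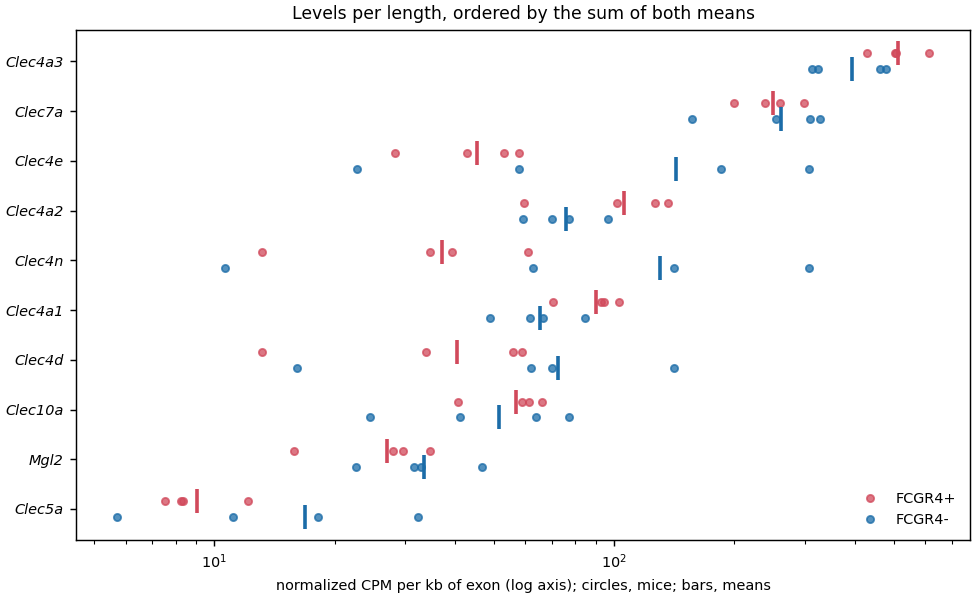
Normalized CPM per kb of exon (log axis) of the 10 receptor genes in FCGR4+ (red) and FCGR4- (blue) cells, with circles for the 4 mice and bars for the means. *Clec4a3* and *Clec7a* lead in both populations, at 513.5 and 249 CPM per kb in FCGR4+ cells, and *Clec4e* and *Clec4n* spread most among FCGR4- libraries.

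The members' patterns over the 8 libraries were compared by the root mean square (RMS) difference of their log2 CPM after centering each gene on its mean, in log2 units. Among the 45 pairs of members, *Clec4a1* and *Clec4a2* were the closest at 0.307, but by distance from *Clec4a1* among all tested genes *Clec4a2* ranked only 962. *Clec4e* and *Clec5a* differed by 0.529, *Clec4d* and *Clec5a* by 0.566, and *Clec4n* and *Clec4d* by 0.584, although *Clec5a* lies far from the cluster on chromosome 6. Among all tested genes *Clec5a* ranked 6 by distance from *Clec4e* and 155 from *Clec4d*, *Clec4e* ranked 438 from *Clec5a*, and *Clec4d* ranked 20 from *Clec4n*. *Clec4n* and *Clec10a* were the most distant pair, at 1.89. The tested genes closest to *Clec4n*, the member with the largest log2 fold change in size, included *Sphk1* (RMS 0.374), which encodes a sphingosine kinase, and *Met* (0.377), the receptor for hepatocyte growth factor. *Met* was at 1.99, 11.02, 11.4, and 6.27 CPM in FCGR4+ cells and at 2.36, 45.1, 60.3, and 13.99 CPM in FCGR4- cells, with the same order of mice as *Clec4n* in FCGR4- cells. These distances are descriptions over 8 libraries that share mice and sorts.

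Of 30 other C-type lectin genes, 25 were tested and edgeR called 5 lower in FCGR4+ cells and none higher. *Cd209a*, which encodes a DC-SIGN homolog, was at 4.74, 9.42, 2.71, and 3.94 CPM in FCGR4+ cells and at 15.1, 51.8, 34.3, and 24.4 CPM in FCGR4- cells. All FCGR4+ values lay below all FCGR4- values, and the log2 fold change was -2.60 (SE 0.32, edgeR adjusted p = 0.0252). *Mrc2*, the collagen receptor Endo180, fell by 4.11 on the log2 scale (0.302 ± 0.304 against 4.10 ± 2.02 CPM, adjusted p = 0.0516) and *Clec11a*, a secreted growth factor, by 2.31 (0.486 ± 0.278 against 2.26 ± 0.996 CPM, adjusted p = 0.0666), again without overlap. *Cd209b* fell by 2.36 (0.508 ± 0.470 against 2.945 ± 3.083 CPM, edgeR adjusted p = 0.0746), with overlapping groups. *Cd209f* fell by 2.40 (4.96 ± 6.36 against 18.69 ± 20.41 CPM, edgeR adjusted p = 0.0935), also with overlapping groups, and shares 29.8% of its 50-base words with *Cd209g*. Of the called genes, all but *Cd209a* had few counts in at least 1 FCGR4+ library. The lowest were 4 for *Mrc2* and *Cd209f*, 5 for *Cd209b*, and 7 for *Clec11a*, so the sizes of these falls are uncertain. The median log2 fold change of the 25 was -0.66, or 0.02 over the 15 with at least 10 counts in every library, and 13 of the 25 had an unadjusted p under 0.05.

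*Clec12a* and *Mrc1*, with *Cd93* the most counted of these other lectin genes by the mean CPM of both populations, without regard to length, were not called by edgeR. *Clec12a*, an inhibitory receptor for uric acid crystals, was at 497 ± 125 CPM in FCGR4+ and 339 ± 147 CPM in FCGR4- cells, and *Mrc1*, the mannose receptor CD206, at 461.5 ± 197 and 275 ± 79.5 CPM. All 4 mice had more of both in FCGR4+ cells, with log2 fold changes of 0.61 and 0.68 and adjusted p-values of 0.303 and 0.258 by edgeR and 0.0408 and 0.0153 by DESeq2. *Clec4b1*, which lies in the same gene family as the DCIR genes and is named here after its values were seen, was the third with 4 of 4 mice higher (log2 fold change 0.50, edgeR adjusted p = 0.488). *Cd93* was at 160.3 and 155 CPM. DESeq2 called 2 higher (*Clec12a* and *Mrc1*) and 11 lower, adding *Clec3b*, *Clec9a*, *Cd209d*, *Cd209g*, *Cd69*, and *Klrb1b* to the 5 above. Fibroblast, dendritic cell, and lymphocyte markers were lower in FCGR4+ cells as given above, *Clec9a* and *Cd209a* are known from dendritic cells and *Mrc2* from fibroblasts, and the part of those cells was not tested. Without mouse 1, 3, or 4 in turn 2 other lectin genes were called, without mouse 2 it was 1, and with no pairing by mouse 0 were called.

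**Figure D5:**
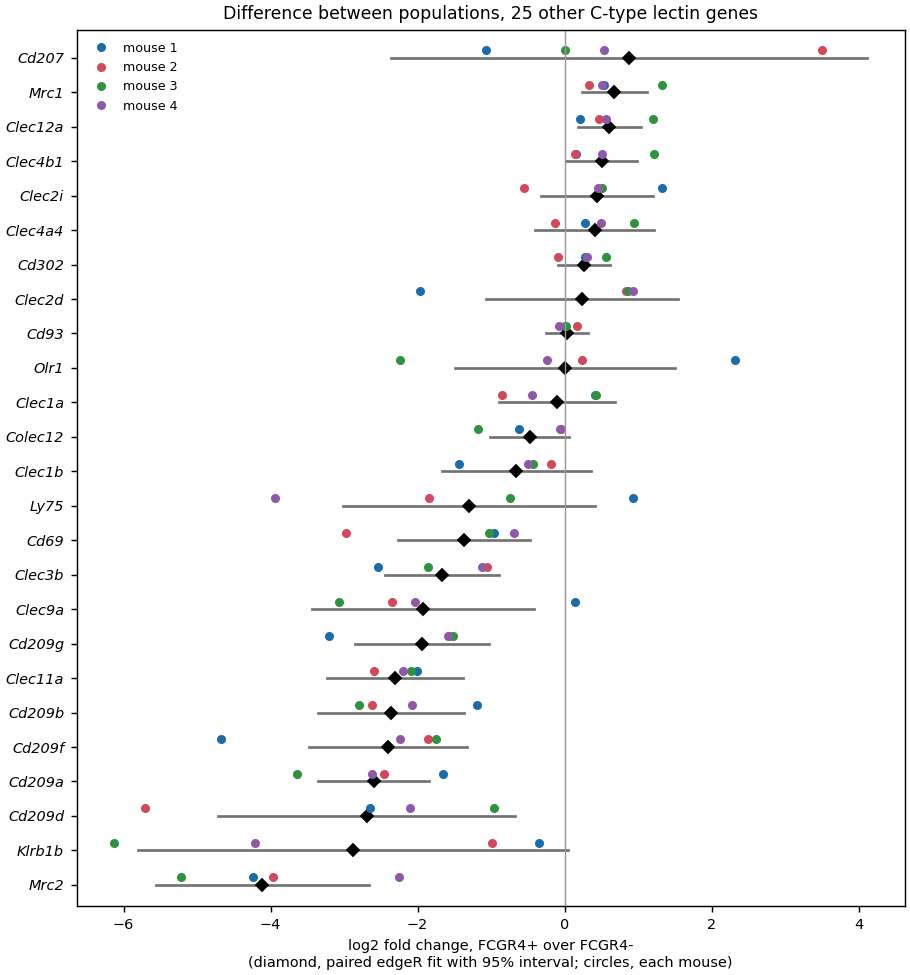
Log2 fold change of FCGR4+ over FCGR4- (horizontal axis) of the 25 other C-type lectin genes tested, with a diamond and line for the paired edgeR estimate and its 95% interval and circles for the 4 mice. *Mrc1* and *Clec12a* lie right of 0 in 4 of 4 mice, and the *Cd209* genes, *Clec11a*, and *Mrc2* lie left of it in 4 of 4 mice. The lowest fitted estimate is -4.11, for *Mrc2*, and some single mice lie lower.

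The adaptors and signaling proteins downstream of these receptors did not pass the threshold. Of 20 tested genes edgeR called 0 and DESeq2 0, and 1 had an unadjusted p under 0.05 (*Nfatc1*, log2 fold change -0.50, named after its values were seen). *Tyrobp*, which encodes DAP12, was at 1778 ± 371 CPM in FCGR4+ and 1590.0 ± 142 CPM in FCGR4- cells. *Fcer1g*, which encodes the γ chain shared by Dectin-2, MCL, Mincle, and FCGR4 itself, was at 969, 1117, 1664, and 1466 CPM in FCGR4+ cells and 840.5, 1009.7, 1259, and 1210.0 CPM in FCGR4- cells. It was higher in FCGR4+ cells of every mouse, but the groups overlapped (log2 fold change 0.26, SE 0.12, edgeR adjusted p = 0.544). *Lyn*, a Src family kinase, was at 243 ± 40.3 and 209.8 ± 34.7 CPM. Of 6 genes for inhibitory phosphatases and ubiquitin ligases, edgeR called 0, DESeq2 called 0, and 0 had an unadjusted p under 0.05. The SHP-1 gene *Ptpn6* was at 362 ± 78.7 and 380 ± 24.6 CPM, *Inpp5d* (SHIP1) at 134 and 144 CPM and *Cbl* at 18.5 and 18.4 CPM.

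Among 15 tested cytokine and other genes that these receptors are known to induce, 1 was lower in FCGR4+ cells, *Il1b*, the gene of interleukin-1β. It was at 38.4, 29.7, 174, and 62.3 CPM in FCGR4+ cells and 59.5, 82.9, 725, and 295.5 CPM in FCGR4- cells. Every mouse had less in FCGR4+ cells, mouse 3 was highest in both populations, and the groups overlapped (log2 fold change -1.61, SE 0.27, edgeR adjusted p = 0.0666). *Il10*, an anti-inflammatory cytokine, was at 63.7 ± 24.9 against 35.4 ± 19.0 CPM, with more in FCGR4+ cells of each mouse, a log2 fold change of 0.95, and an adjusted p of 0.126 by edgeR and 8.3e-04 by DESeq2. The chemokine genes *Cxcl2* (777 ± 297.5 and 976 ± 627 CPM) and *Cxcl1* (241 ± 77.6 and 181.5 ± 58.0 CPM) were called by neither tool. DESeq2 also called *Il1b*, *Il12a* (adjusted p = 0.0765), and the transcription factor gene *Egr2* (0.0529) lower. The median log2 fold change of the 15 was -0.45. It was -0.79 over the 16 tested without mouse 1 and -0.19 over the 14 tested without mouse 3. Neutrophil markers, summed above, were lower in FCGR4+ cells in the same mice, *Il1b* is known from neutrophils and monocytes as well as macrophages, and that part was not tested.

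Of 12 genes of the interleukin-4 pathway, which is known to raise *Clec10a* and *Mgl2*, 1 was lower in FCGR4+ cells, the chemokine gene *Ccl22* (3.44 ± 2.44 against 12.2 ± 8.30 CPM, log2 fold change -1.89, SE 0.31, edgeR adjusted p = 0.0636). DESeq2 called 5 lower, *Ccl22*, *Irf4*, *Retnla*, *Chil3*, and *Ccl24*, and 0 higher. *Chil3* was at 439 ± 399 and 697 ± 652 CPM and *Retnla* at 239.9 ± 315 and 366 ± 230.3 CPM. *Ccl22* is also made by dendritic cells, whose markers were lower in FCGR4+ cells, and that part was not tested. For both gene lists no call was left when mice were not paired, and leaving out 1 mouse gave between 0 and 2 calls in each.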

How the data were processed

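Bulk RNA-Seq libraries of FCGR4+ and FCGR4- eWAT macrophages were sequenced from 4 mice. The authors aligned reads to mm10 with STAR and assigned read pairs to genes with featureCounts 1.6.3, and the deposited values are raw counts for 54146 genes. Multimapping pairs were counted at every place and strand was ignored, so near copies of a gene carry shared counts. Samples were grouped and paired by the population and mouse number in their titles. The same number marks the same animal. The correlation of deviations from the population mean was 0.291 to 0.428 within mice, against a median of -0.0615 between different mice. No pair of libraries of a population agreed within sampling noise.

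The 17095 genes reaching 10 counts in 4 or more of the 8 libraries were normalized by TMM and tested with edgeR 4.0.16 (R 4.3.3) by the quasi-likelihood test in a model of mouse and population, with Benjamini-Hochberg adjustment over all of them and a threshold of 0.1. DESeq2 1.42.0 with the same model, other normalizations and filters, an unpaired fit, and fits without each mouse or within each ID prefix were the alternatives. Intervals are the log2 fold change ± the t quantile times its SE. Ratios for single mice are differences of log2 CPM, computed after a prior count of 2 was added. At these depths 3 counts correspond to 0.0440 to 0.0883 CPM. The fits were also run on simulated counts with known changes but no differences between mice, so that run does not test the pairing. Shared sequence was computed with 50-base words over GENCODE transcripts of the same build, and promoters are the 250 bases before RefSeq start sites (GRCm38.p6), taking the listed start nearest to the annotated gene start.

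The members, the related gene lists, and the cell marker lists were chosen with earlier results of these data known. Named genes are the 10 members, *Fcgr4*, the genes of each related list that passed the threshold in edgeR or DESeq2, the 3 with the highest mean CPM over both populations in each list, and the 3 tested genes nearest to the member with the largest log2 fold change. A few genes that this rule names are not reported here. Protein sequences were not used here.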

Additional observations from a re-analysis of the deposited data

How the results depend on the processing

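The log2 fold changes of the 10 receptor genes and *Fcgr4* were recomputed under each other setting, giving 154 values, of which 146 kept both sign and side of the threshold. In 6 a call appeared, for *Clec4a1*, *Clec4d*, and *Clec4n* with DESeq2 and for *Clec4d* (adjusted p = 0.0378), *Clec4e* (0.0486), and *Clec4n* (0.00144) in edgeR with no filter on low counts. In 2 the sign of *Clec7a* turned, to 0.07 without mouse 2 and 0.10 without mouse 3. Receptor genes called numbered 3 with DESeq2, 3 with no filter, and 0 in the other settings. Without a filter the median of all genes moved to -0.16, and with library size alone to -0.09. The cause of these changes was not tested.

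With no replicate block edgeR called 48 of all genes in place of 217, and 0 of the other C-type lectins, 0 of the cytokine targets, and 0 of the interleukin-4 pathway genes. It changed no call among the 10 receptor genes. All genes called numbered 1024 with DESeq2, 1054 with no filter, 76 at a threshold of 0.05, 632 with edgeR's newer quasi-likelihood method, 115 in mice 1 and 2 alone, 72 in mice 3 and 4 alone, and 78 to 162 without 1 mouse. The other C-type lectins called numbered 13 with DESeq2, 13 with no filter, 2 with 10 counts in every library, 1 at 0.05, 2 in mice 1 and 2, 1 in mice 3 and 4, and 1 to 2 without 1 mouse. Cytokine targets called numbered 4, 4, 2, and 0 under the first 4 of these settings, 2 with the newer method, 0 in mice 1 and 2, and 0 to 2 without 1 mouse. Interleukin-4 pathway genes called numbered 5 with DESeq2, 5 with no filter, 0 at 0.05, 3 with the newer method, 0 in mice 3 and 4, and 0 to 2 without 1 mouse. The lowest count of a receptor gene in any library was 982, so counting error is small for all 10.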

Other observations

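Ratios between receptor genes within a library do not depend on the library's scaling. The CPM of *Mgl2* over that of *Clec10a* was 0.380, 0.281, 0.332, and 0.363 in FCGR4+ cells of mice 1 to 4 and 0.309, 0.928, 0.395, and 0.531 in FCGR4- cells. Per kb of exon, *Clec10a* was above *Mgl2* in 3 of the 4 FCGR4- libraries, and *Mgl2* was above *Clec10a* in that of mouse 2. *Clec4n* over *Clec4d* was 0.888, 0.908, 0.922, and 0.626 in FCGR4+ cells and 0.588, 1.79, 1.94, and 0.894 in FCGR4- cells, above 1 only in the FCGR4- libraries of mice 2 and 3. *Clec4e* over *Clec4a3* was 0.323, 0.248, 0.425, and 0.318 in FCGR4+ cells but 0.178, 1.49, 3.56, and 0.693 in FCGR4- cells. Mincle RNA thus exceeded that of DCIR3 in counts, not per length, in the same pair of FCGR4- libraries. These ratios are descriptions of the libraries with no test.

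The 10 receptor genes together took 2655, 1965, 2596, and 2337 CPM in FCGR4+ cells and 2153, 3113, 4082, and 1985 CPM in FCGR4- cells. The groups overlapped, and the sum in FCGR4- cells was highest in mice 2 and 3.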
